A study of Mus musculus with 15 samples.

Results

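The comparison described here is the effect of Trappc1 knockout on granulocyte-monocyte progenitors (GMP), over 7 of the 15 libraries of the series. The members are the 15181 genes, of the 23337 listed, that passed a filter on low counts over all 15 libraries (13794 with the GMP libraries alone). The KO GMP libraries carry the numbers 1, 3 and 4 in their titles, and the WT GMP libraries the numbers 1 to 4. A KO GMP library numbered 2 was not analysed here. Library 1 of the KO stood apart from the other 6, so the leading genes and gene lists are given with it, without it, or against the WT libraries of the nearest numbers.

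Cells were sorted from bone marrow of untreated mice labelled Trappc1 KO or WT. The GMP gate took cells negative for lineage markers and Sca1, positive for CD117 (Kit) and CD34, and high for the Fc receptors CD16/32. The WT common myeloid progenitors (CMP; n = 4) used below for reference differ from it in being low for CD16/32. RNA was sequenced after a SMARTER mRNA library preparation. The sources used here do not give how Trappc1 was deleted, in which cells, which part of the gene was removed, or the age and sex of the mice. Nothing in the labels says that each library is its own animal. The p-values therefore reflect only how much these libraries scatter, and that scatter may be technical.

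Trappc1 encodes a small core subunit shared by the TRAPP complexes, which activate Rab GTPases and tether transport vesicles between the endoplasmic reticulum (ER), the Golgi and later compartments. GMP are short-lived bone marrow cells that give rise to neutrophils and monocytes, and the same gate also holds precursors of eosinophils, basophils and mast cells. They make large amounts of secretory granule proteins, such as the peroxidase Mpo and the elastase Elane, all of which pass through the ER and Golgi. In bulk RNA, fewer cells of a kind and less RNA per cell cannot be told apart.

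The GMP libraries held 61278415 to 112433524 estimated counts. Among pairs of the same genotype, KO libraries 3 and 4 were the most alike. They still differed by more than counting error (a chi-square of 4.9 per gene on fragments, where counting error gives about 1). Pairs of a KO and a WT library were not compared in this way. On the first principal component of the 7 libraries (39.1% of the variance) KO library 1 lay at -114.8 and the other 6 between 1.4 and 32.7. The second component (23.4%) put WT libraries 1 and 2 at 59.4 and 57.6, and the other 5 between -26.8 and -18.4. KO libraries 3 and 4 lay at 22.3 and 28.3 on the first component, beside WT libraries 3 and 4 at 22.6 and 32.7. WT libraries 1 and 2 differed from WT libraries 3 and 4 in 1307 of 15181 genes (8.61%), 479 higher (3.16%) and 828 lower (5.45%), so KO libraries are also compared with the WT libraries of their own numbers. The labels do not say what the numbers stand for, and the split into 1 and 2 against 3 and 4 was chosen with earlier results of these data known.

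The targeted gene was lower in every KO library. The gene Trappc1 (ENSMUSG00000049299.14) lies on the plus strand of chromosome 11, from 69323980 to 69325793 in GRCm38. It measured 41.3, 37.0, 30.9 and 33.3 CPM in WT libraries 1 to 4, where CPM is the count scaled to a common library total. It measured 6.09 CPM in KO library 1, and 24.1 and 25.2 CPM in KO libraries 3 and 4. WT CMP held 18.4 to 26.2 CPM. KO library 1 thus held far less Trappc1 RNA than the other 2, although the groups did not overlap (exact permutation test, two-sided p = 0.0571, the smallest that 3 against 4 libraries allow). Against the WT libraries of the same numbers the log2 fold change was -2.69 ± 0.27 (SE) in library 1 (edgeR adjusted p = 3.61e-05) and -0.38 ± 0.19 in libraries 3 and 4 (adjusted p = 1). KO library 1 also held Xist, the RNA that silences an X chromosome in females, at 123 CPM, where the other 6 held at most 0.305 CPM. Its Y-linked Ddx3y (57.5 CPM) and Uty (15.3 CPM) were below but near those of the WT libraries (72.4 to 85.8 and 19.9 to 22.0 CPM). The summed level of 6 sex-linked genes was 285.4 CPM in KO GMP library 1, and 275.8 and 390.6 CPM in KO CMP libraries 1 and 2. KO CMP libraries 3 and 4 held 174 and 177.4 CPM, WT GMP 188.9 to 213.4 CPM and WT CMP 170.1 to 222.8 CPM. The sum adds Xist and Y-linked genes together, so it does not show which of them differ between libraries. Whether KO GMP library 1 is mixed or carries another sample's label was not tested. Its differences from WT are therefore those of the library labelled KO 1 and have no replicate.

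Over all 7 libraries, Tpm4, P2rx7 and Fn1 were lower in all 3 KO libraries than in all 4 WT libraries, with log2 changes of -0.79, -0.72 and -1.73, and of -0.74, -0.94 and -1.22 without library 1. No gene passed an adjusted p of 0.05 in edgeR (0 of 15181, 0%), with 681 genes higher (4.49%) and 304 lower (2%) at an unadjusted p under 0.05. Without KO library 1 the count was again 0 of 15506 (0%), with 206 higher (1.33%) and 331 lower (2.13%) at the unadjusted threshold. DESeq2 called 48 genes higher and 12 lower over all 7 libraries, and 1 higher and 10 lower without library 1. The counts of limma-voom were 0 and 0, then 0 and 1. When the number set was a covariate, edgeR called 4 genes higher and 1 lower over all 7.

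The smallest p over all 7 libraries belonged to Tpm4, a tropomyosin of the actin cytoskeleton (chromosome 8, 72134975 to 72153142, plus strand, GRCm38). It measured 56.4, 58.6, 44.1 and 46.8 CPM in WT libraries 1 to 4 and 28.1, 32.1 and 29.3 CPM in KO libraries 1, 3 and 4. All 3 KO libraries lay below all 4 WT libraries, and the KO values were closer to each other than the WT values. The log2 fold change was -0.79 ± 0.12 with library 1 (adjusted p = 0.161) and -0.74 ± 0.14 without it (adjusted p = 0.373). Tpm4 is the gene that edgeR called lower when the number set was a covariate (-0.80, adjusted p = 0.0335). Its adjusted p over the alternatives ranged from 1.5e-06 in DESeq2 to 0.878 with the GMP libraries alone.

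P2rx7, an ATP-gated ion channel, held 26.6, 28.1, 22.7 and 22.1 CPM in WT and 19.5, 14.5 and 11.4 CPM in KO libraries 1, 3 and 4. Here library 1 was the KO library nearest to WT, and the change was larger without it (-0.94 ± 0.14) than with it (-0.72 ± 0.16). Fn1, which encodes the matrix protein fibronectin, held 38.0, 42.8, 43.8 and 35.5 CPM in WT and 1.91, 17.7 and 16.6 CPM in KO. All KO libraries were below WT, library 1 by far the most. The log2 change of Fn1 was -1.73 ± 0.49 with library 1 and -1.22 ± 0.20 without it, and the adjusted p without library 1 was 0.209 in the fit of all libraries. With the GMP libraries alone, Fn1 (adjusted p = 0.0301) and the basophil protease Prss34 (-1.12, adjusted p = 0.0125) were the 2 genes that edgeR called without library 1, both lower. Fn1 was also the 1 gene that limma-voom called (adjusted p = 0.00918). Anxa5, a calcium-dependent binder of phosphatidylserine, was at 160 to 171 CPM in WT and at 112, 137 and 136 CPM in KO. The kinase Bmx held 11.96 to 17.7 CPM in WT and 6.66, 9.72 and 7.995 CPM in KO, and Wfs1, an ER membrane protein, 7.42 to 8.86 against 4.06, 4.94 and 4.14 CPM. None of these genes passed in edgeR over all 7 libraries, and DESeq2 called Tpm4, P2rx7, Fn1 and Anxa5 lower both with and without library 1.

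**Figure D1:**
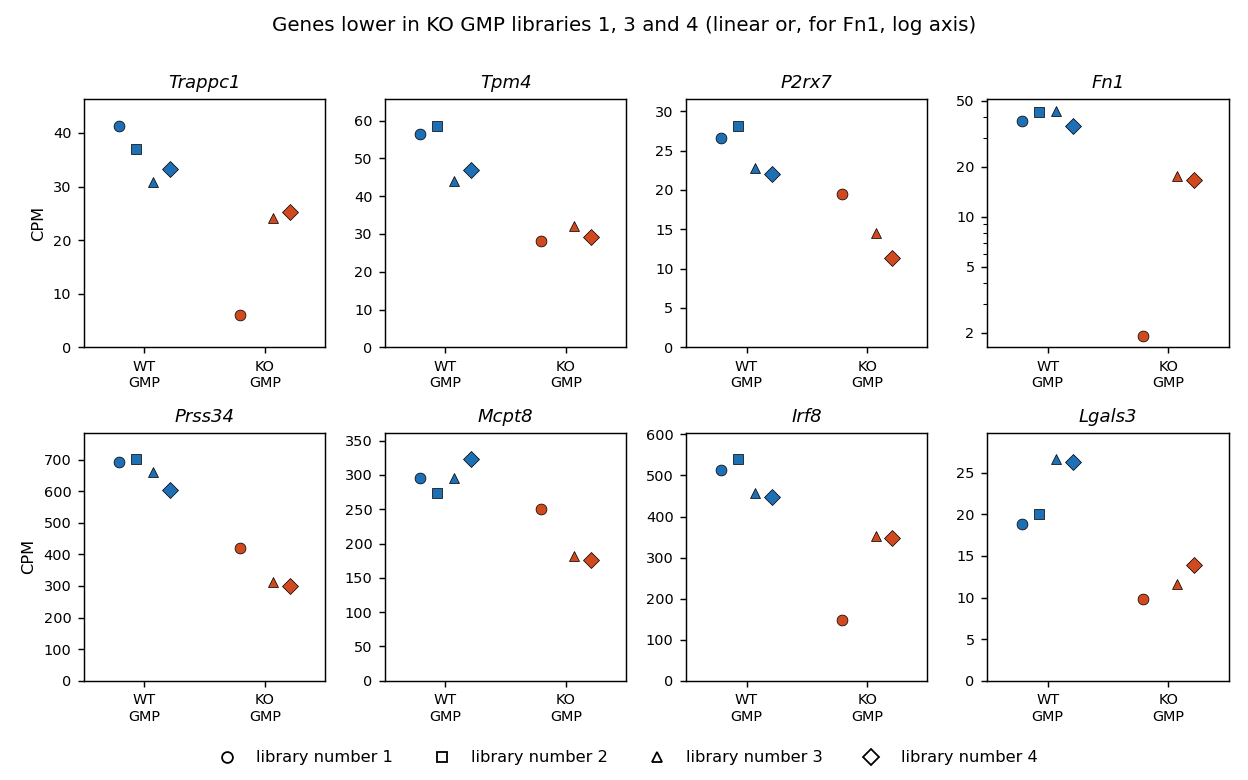
CPM of 8 genes in each GMP library (y axis; log scale for Fn1, linear from 0 for the others), WT in blue and KO in orange, with the marker shape giving the library number. In each panel the 3 KO points lie below the 4 WT points, for example Tpm4 at 28.1 to 32.1 CPM in KO against 44.1 to 58.6 CPM in WT.

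The genes with the smallest p among those higher in KO depended more on library 1. The lipoprotein receptor Vldlr held 1.18 to 2.37 CPM in WT, 16.2 CPM in KO library 1, and 3.56 and 3.13 CPM in KO libraries 3 and 4. Its log2 fold change went from 2.06 ± 0.51 with library 1 to 0.87 ± 0.36 without it. The mast cell chymase Cma1 went from 3.78 ± 0.97 to 0.95 ± 0.74. Slc19a2, a thiamine transporter, changed less, from 0.57 ± 0.14 to 0.46 ± 0.15, with WT at 13.2 to 18.9 CPM and KO at 28.8, 23.5 and 22.6 CPM. Dusp6, a phosphatase acting on ERK kinases, was at 32.7 to 38.5 CPM in WT and 80.3, 49.4 and 42.9 CPM in KO, with 0.68 ± 0.17 and 0.36 ± 0.12. Ap1s3, an adaptor subunit of clathrin coats, gave 0.64 ± 0.17 and 0.57 ± 0.19, and Ddit4, a stress-induced inhibitor of mTORC1, 0.73 ± 0.19 and 0.58 ± 0.20. The zinc finger gene Zfp949 gave 0.38 ± 0.13 and 0.43 ± 0.14. For each of these genes the groups did not overlap, and none passed the adjusted threshold in edgeR.

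Padi2 and Myof were lower in KO libraries 3 and 4 and not in library 1. Padi2, which converts arginine to citrulline in proteins, held 36.9 to 47.5 CPM in WT, 25.8 and 25.4 CPM in KO libraries 3 and 4, and 72.7 CPM in KO library 1. Its log2 change was -0.06 ± 0.29 over all 7 libraries and -0.75 ± 0.15 without library 1. Myof, a membrane repair protein, went from -0.36 ± 0.24 to -0.80 ± 0.19. Among genes with at least 5 CPM, 332 (3.55%) were higher and 440 (4.71%) lower in all 3 KO libraries than in all 4 WT libraries, of 9340.

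Several gene lists had medians that moved with library 1. The median log2 change of the tested members with library 1 and without it was 1.01 and 0.01 for megakaryocyte and platelet genes, 0.45 and -0.16 for stem and multipotent progenitor genes, and 0.97 and -0.24 for MHC class II genes (0.01 and 0 over all genes). For late neutrophil genes it was 0.04 and 0.42, and for primary granule genes -0.10 and 0.15. Other lists had medians of 1 sign in both fits, at -0.28 and -0.15 for monocyte and macrophage genes, -0.16 and -0.14 for mast cell, basophil and eosinophil genes, and 0.35 and 0.25 for targets of p53. With KO libraries 3 and 4 set against WT libraries 3 and 4 only, the median of the p53 targets was 0.11. These fits, with the CMP libraries included, called 0 genes in edgeR, so 0 members of any list passed. At an unadjusted p under 0.05, 8 of the 27 p53 targets were higher with library 1 and 2 without it, and 0 were lower in either fit. Among all genes, 4.49% and 1.33% were higher at that threshold.

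KO libraries 3 and 4 against WT libraries 3 and 4 leave out library 1 and the WT libraries of its numbers. With the spread taken from all 15 libraries, 1 gene was higher and 1 lower (0.00659% each, and 2 of 15181 or 0.0132% together). At an unadjusted p under 0.05 in edgeR, 315 genes were higher (2.07%) and 474 lower (3.12%). S100a6, a small calcium-binding protein (chromosome 3, 90612882 to 90624181, plus strand, GRCm38), fell to 5.24 and 5.12 CPM in KO from 10.7 and 11.3 CPM in the WT libraries, a log2 change of -1.08 ± 0.14 (adjusted p = 0.0414). WT libraries 1 and 2 (8.24 and 9.59 CPM) were above KO library 1 (7.99 CPM) by little. S100a6 lost the call when any 1 of the 4 libraries was left out, with adjusted p from 0.102 to 0.650. The gene called higher, Gm8801, annotated as an unprocessed pseudogene on chromosome 17, was listed at 0 in WT libraries 3 and 4 and under 1 CPM in both KO libraries. WT libraries 1 and 2 held 1.40 and 1.17 CPM of it, more than KO libraries 3 and 4. Its reads can be shared with near-identical copies, so its value is uncertain.

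With the spread taken from the GMP libraries alone, which leaves 3 residual degrees of freedom, 8 genes passed as higher and 26 as lower in KO libraries 3 and 4 in edgeR, 34 of 13794 tested (0.058%, 0.188% and 0.246%). Of the 26 lower genes, 6 were in the list of mast cell, basophil and eosinophil genes and 2 in the monocyte and macrophage list, and 2 of the 8 higher genes were immediate early genes. KO library 1 and WT libraries 1 and 2 do not enter this contrast, and the calls rested on both KO libraries in it. Without KO library 3, 16 genes were called (8 of the 34), and without KO library 4, 7 genes (4 of the 34). Without WT library 3 the calls were 40 (25 of the 34) and without WT library 4 they were 38 (23 of the 34). DESeq2 on all 15 libraries called 13 higher and 29 lower, and limma-voom 2 higher and 13 lower. Until library 1 is taken alone, log2 changes in libraries 3 and 4 come from this fit unless another is named, and those in library 1 from the fit of all libraries.

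Basophil proteases were lower in all 3 KO libraries. Prss34 held 694, 701, 660 and 605 CPM in WT libraries 1 to 4 and 422, 313 and 299 CPM in KO libraries 1, 3 and 4. Mcpt8 held 296, 274, 295 and 323 CPM in WT and 251, 181 and 176 CPM in KO. No KO library reached a WT library for either protease. In libraries 3 and 4 Prss34 fell by 1.04 ± 0.06 and Mcpt8 by 0.78 ± 0.07 on the log2 scale, and library 1 against WT 1 and 2 gave -0.73 ± 0.49 and -0.19 ± 0.15 (edgeR adjusted p = 0.331 and 0.416). Fcer1a, the IgE-binding chain of the high-affinity IgE receptor, fell by 0.69 ± 0.09 in libraries 3 and 4, from 37.7 and 43.3 CPM to 26.4 and 23.6 CPM. It rose in library 1 by 0.60 ± 0.18 (adjusted p = 0.0367), to 97.97 CPM from 67.1 and 62.3 CPM.

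Prg2, Epx, Ear1 and Ear3, all genes of eosinophil granules, were lower in KO libraries 3 and 4 than in WT libraries 3 and 4. Prg2, the major basic protein, held 1185 and 1141 CPM in WT libraries 1 and 2 and 366 CPM in KO library 1. In WT libraries 3 and 4 it held 3878 and 5065 CPM, and in KO libraries 3 and 4 it held 2556 and 2562 CPM. KO libraries 3 and 4 were thus above WT libraries 1 and 2, so the groups overlap over all 7 libraries. The fall in libraries 3 and 4 was 0.80 ± 0.10 for Prg2, 0.65 ± 0.08 for the peroxidase Epx, and 1.02 ± 0.15 and 0.98 ± 0.14 for the ribonucleases Ear1 and Ear3. Ear1 and Ear3 also fell in library 1, by 2.16 ± 0.51 and 2.29 ± 0.55 while Prg2 (-1.67 ± 0.67, adjusted p = 0.102) and Epx (-0.91 ± 0.63, adjusted p = 0.349) did not pass there. The Ear genes are near-identical copies of each other, so counts can be split among them. Alox15, a lipoxygenase made by eosinophils and macrophages, fell by 1.66 ± 0.11 in libraries 3 and 4, from 45.7 and 51.0 CPM to 15.4 and 14.99 CPM. WT libraries 1 and 2 held 6.25 and 7.63 CPM of Alox15, and KO library 1 held 2.98 CPM.

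Of the 21 genes of mast cells, basophils and eosinophils tested with the GMP libraries alone, 6 fell and 0 rose in libraries 3 and 4, with a median log2 change of -0.63 (0 over all genes). In the fit of all libraries 0 of 22 passed in libraries 3 and 4 (median -0.60). At an unadjusted p under 0.05 in edgeR, 11 were lower and 0 higher, where 3.12% and 2.07% of all genes were. Against all 4 WT libraries 0 passed either, and the medians were -0.14 without library 1 and -0.16 with it. The same list gave 8 genes higher and 5 lower of 22 in library 1 (median 0.14). Members made by mast cells rose there, among them Cma1 at 38.0 CPM against 1.13 and 1.18 CPM, the tryptase Tpsb2 at 7.87 CPM against at most 0.0173 CPM, and Il1rl1, the receptor for interleukin 33 (1.79 ± 0.14). The summed level of the list was 5228 to 5306 CPM in KO libraries 3 and 4, 2964 CPM in KO library 1, and 3730 to 9423 CPM in WT.

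Irf8, Psap, Ctsh, Lyz2 and Lgals3, which are expressed along the monocyte lineage, fell in KO libraries 3 and 4. The transcription factor Irf8, which directs progenitors towards monocytes and dendritic cells, held 513, 539, 458 and 447 CPM in WT and 147, 353 and 347 CPM in KO libraries 1, 3 and 4. It fell by 0.36 ± 0.05 in libraries 3 and 4 and by 1.84 ± 0.21 in library 1. Lgals3 (galectin-3) held 18.8 to 26.6 CPM in WT and 9.79, 11.7 and 13.9 CPM in KO, and fell by 1.04 ± 0.11 in libraries 3 and 4. The lysosomal genes Psap (prosaposin, -0.45 ± 0.05) and Ctsh (cathepsin H, -0.60 ± 0.07), and lysozyme Lyz2 (-0.44 ± 0.07), fell in libraries 3 and 4. All 3 fell in library 1 too, by 0.91 ± 0.16, 2.35 ± 0.30 and 0.73 ± 0.13. KO libraries 3 and 4 held 240.9 and 253.8 CPM of Lyz2, within the WT range, as WT libraries 1 and 2 held 253.4 and 226.6 CPM. In the monocyte and macrophage list, 10 of 25 genes were lower in all KO than in all WT libraries and 1 was higher (3.7% and 3.64% of all tested genes). In library 1, 9 of the 25 fell and 1 rose (median -0.68). In libraries 3 and 4, in the fit of all libraries, 0 of 25 passed in edgeR (median -0.29). At an unadjusted p under 0.05, 5 were lower and 0 higher, where 3.12% and 2.07% of all genes were. Against all 4 WT libraries 0 of 25 passed with or without library 1, with 1 and 0 lower and 0 higher at that threshold. The list's summed level was 5296 to 5942 CPM in WT, 4622 to 4651 CPM in KO libraries 3 and 4, and 1452 CPM in KO library 1.

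Igj (the joining chain of secreted antibodies) had the smallest p in libraries 3 and 4, at 178 and 174 CPM in WT and 34.2 and 32.4 CPM in KO (-2.39 ± 0.06 with the GMP libraries alone). WT libraries 1 and 2 held 76.2 and 77.9 CPM, and KO library 1 held 104 CPM, so the direction was not shared by library 1. The fit of all libraries gave -2.40 ± 0.67 for Igj, with an adjusted p of 0.490. In the B cell list, Pax5 and Ms4a1 were under 1 CPM in every GMP library, and the summed level of the list was 117 to 227 CPM in WT and 71.6 to 77.8 CPM in KO libraries 3 and 4. Igj made up most of that difference: without it the sum was 39.2 to 49.2 CPM in WT, 43.6 and 39.2 CPM in KO libraries 3 and 4, and 39.7 CPM in KO library 1. Early-response genes were among those higher. Atf3, a stress-induced transcription factor, held 13.6 and 11.2 CPM in WT libraries 3 and 4 and 21.7 and 23.2 CPM in KO (0.86 ± 0.12), and KO library 1 (24.2 CPM) was also above WT libraries 1 and 2 (14.2 and 16.5 CPM). Klf6 (0.40 ± 0.06) and the phosphatase Dusp2 (0.55 ± 0.06) rose, the 2 of 22 immediate early genes to pass. In the fit of all libraries 0 of 23 passed in libraries 3 and 4, with 3 higher and 0 lower at an unadjusted p under 0.05. Dusp2 held 66.3 and 71.0 CPM in WT libraries 3 and 4 and 100.3 and 100 CPM in KO, but 97.0 and 99.2 CPM in WT libraries 1 and 2 and 93.3 CPM in KO library 1. Tnfaip3, an inhibitor of NF-kB signalling, rose by 0.59 ± 0.06 and the chemokine Cxcl2 by 0.85 ± 0.10, but WT libraries 1 and 2 held more of both than the KO libraries 3 and 4. Trib1, a pseudokinase that promotes C/EBPα degradation, rose by 0.79 ± 0.07 in libraries 3 and 4 and by 0.90 ± 0.14 in library 1 (fit of all libraries). KO libraries 3 and 4 held 59.1 and 58.4 CPM of Trib1, within the WT range, as WT libraries 1 and 2 held 64.7 and 58.2 CPM. Odc1, the first enzyme of polyamine synthesis, rose by 0.35 ± 0.05 in libraries 3 and 4 and by 0.40 ± 0.08 in library 1.

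KO library 1 against WT libraries 1 and 2 gave most of the calls in the GMP. In the fit of all libraries, where the single KO library is assumed to vary like the others, 1667 of 15181 genes were higher (11%) and 1366 were lower (9%). Without WT library 1 the counts were 1211 and 757, and without WT library 2 they were 1275 and 1037. With the GMP libraries alone 2181 genes were lower. Of the 3033 genes, 1863 were among the 1968 called without WT library 1, and 2115 among the 2312 called without WT library 2.

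Neutrophil genes were low in KO library 1. The calprotectin subunit S100a8 held 184, 169, 344 and 460 CPM in WT, 6.68 CPM in KO library 1, and 456 and 447 CPM in KO libraries 3 and 4. KO libraries 3 and 4 overlapped WT, and library 1 was below every other GMP library. Its log2 change was -4.72 ± 0.45 in library 1 and 0.17 ± 0.28 in libraries 3 and 4. The chitinase-like Chi3l3 (-5.57 ± 0.20), the granule protein Ngp (-5.28 ± 0.35), S100a9 (-4.38 ± 0.30), the ficolin Fcnb (-4.48 ± 0.59), the lectins Clec4b2 (-5.26 ± 0.62) and Clec4a2 (-3.77 ± 0.48), and the surface protein Ly6c1 (-3.71 ± 0.32) fell as well. Fn1 fell there by 4.40 ± 0.31. Cux2, a homeobox transcription factor, was listed at 0 in KO library 1 against a mean of 6.33 CPM in WT libraries 1 and 2, at least 42.3-fold lower with a floor of 3 fragments in that library, and at 3.62 and 3.42 CPM in KO libraries 3 and 4. Of 23 late neutrophil genes 13 fell and 3 rose (median -1.29). One that rose was Lcn2, the iron-sequestering lipocalin (1.18 ± 0.16).

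The primary granule genes, which mark the GMP stage, fell less. Mpo held 22680, 24060, 24280 and 24920 CPM in WT, 14820 CPM in KO library 1, and 26280 and 26150 CPM in KO libraries 3 and 4. Elane held 7408, 7728, 7432 and 7302 CPM in WT, 2498 CPM in KO library 1, and 7357 and 7785 CPM in KO libraries 3 and 4. Library 1 was low for both, and libraries 3 and 4 were slightly above WT for Mpo and around it for Elane. In library 1 Mpo fell by 0.66 ± 0.09, Elane by 1.60 ± 0.18, and the granule proteases Prtn3 and Ctsg by 1.19 ± 0.10 and 0.91 ± 0.12. Of 17 granule genes, 14 fell and 0 rose in library 1 (median -0.66), and 0 passed in libraries 3 and 4 in the fit of all libraries (median 0.08; 1 higher and 2 lower at an unadjusted p under 0.05). Of 6 subunits of the phagocyte NADPH oxidase, which makes the oxidative burst, 5 fell, among them Cybb (-1.99 ± 0.48), Ncf1 (-0.83 ± 0.08) and Ncf4 (-1.03 ± 0.11). The regulators Cebpe (-0.82 ± 0.26), Cebpb (-1.13 ± 0.28), Cebpd (-1.21 ± 0.14), Gfi1 (-0.56 ± 0.10) and Klf4 (-1.81 ± 0.32), which act in granulocyte and monocyte differentiation, and the monocyte growth factor receptor Csf1r (-1.94 ± 0.18) fell. Of the 19 genes in the list of myeloid fate regulators, 7 fell and 2 rose (median -0.18). Those that rose were Gfi1b (1.99 ± 0.25), a repressor acting in erythroid and megakaryocyte cells, and the immediate early gene Egr1 (0.58 ± 0.13).

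Genes of earlier progenitors and of megakaryocytes rose in library 1. The thrombin receptor F2r held 2.18, 1.75, 3.13 and 3.04 CPM in WT, 31.2 CPM in KO library 1, and 2.80 and 3.05 CPM in KO libraries 3 and 4. The last 2 were within the WT range. F2r rose by 4.00 ± 0.18 in library 1, the clotting protein Vwf by 3.04 ± 0.14 and the platelet chemokine Pf4 by 2.45 ± 0.34. In the megakaryocyte and platelet list 15 of 20 rose and 0 fell (median 1.90). Of 24 stem and multipotent progenitor genes 20 rose and 0 fell (median 1.08), with the growth factor Angpt1 at 113 CPM against 23.5 and 26.6 CPM, and the transcription factors Hlf (1.68 ± 0.12), Mecom (2.05 ± 0.27) and Gata2 (1.45 ± 0.12). Of 9 MHC class II genes 5 rose and 1 fell, with Cd74, the invariant chain, at 283 CPM against 28.4 and 30.2 CPM, and H2-Eb1 (3.48 ± 0.36) and the regulator Ciita (4.15 ± 0.47).

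The genes of the sort gate moved in the same library. Fcgr3, which encodes CD16, held 271, 239, 305 and 315 CPM in WT GMP, 311 and 295 CPM in KO libraries 3 and 4, and 125 CPM in KO library 1. The 4 WT CMP libraries held 36.6 to 115 CPM, so library 1 lay nearer to them than to any other GMP library. Fcgr3 fell by 1.03 ± 0.18 in library 1. Cd34 was at 547 CPM in KO library 1, 206 to 326 CPM in WT GMP and 525 to 693 CPM in WT CMP, and rose by 0.77 ± 0.09. Kit rose by 0.49 ± 0.10, to 419 CPM from 285 and 313 CPM.

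**Figure D2:**
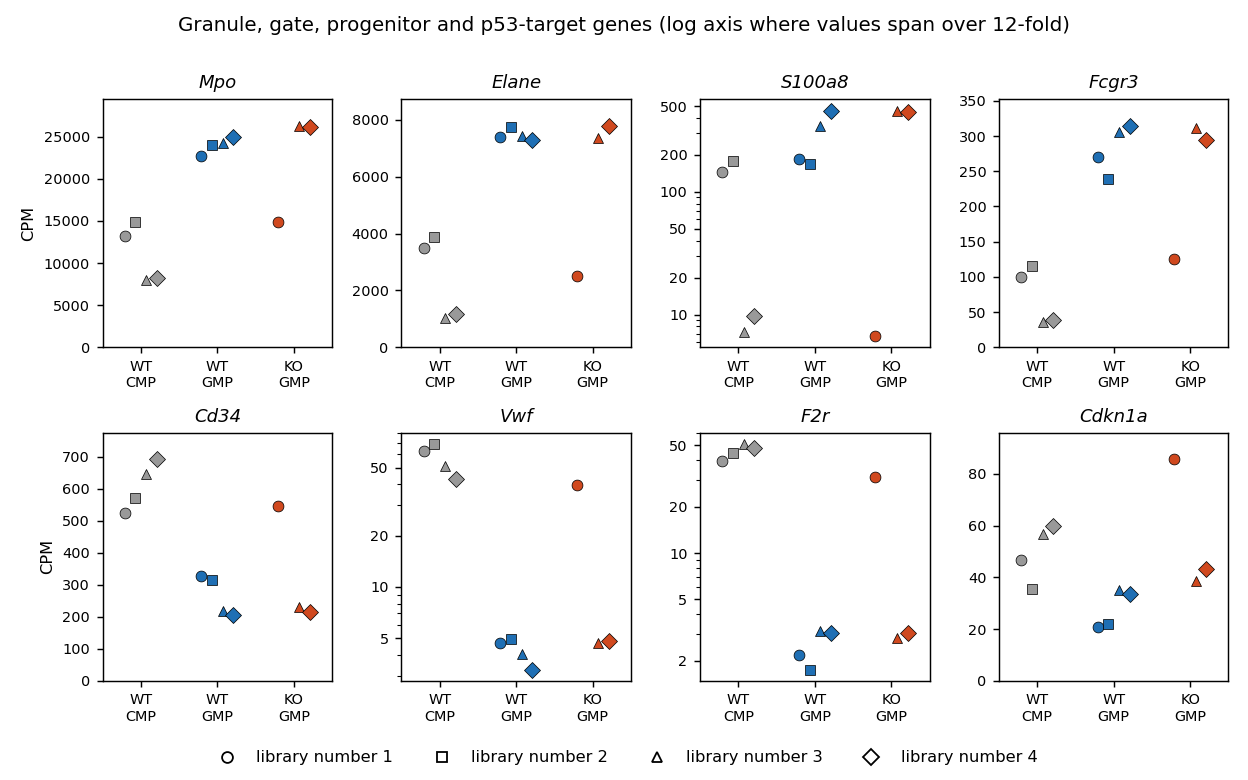
CPM of 8 genes (y axis; log scale for S100a8, Vwf and F2r, linear from 0 for the others) in each WT CMP (grey), WT GMP (blue) and KO GMP (orange) library, with the marker shape giving the library number. KO GMP library 1 (circle) stands apart from KO GMP libraries 3 and 4 in every panel, and for Fcgr3 (125 CPM) and Cd34 (547 CPM) it is nearest to WT CMP.

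The calls of library 1 were set against the WT difference between cell types in libraries that neither comparison shares, WT CMP 3 and 4 against WT GMP 3 and 4. In that comparison, added after the data were seen, 2934 genes were higher in CMP (19.3%) and 2917 lower (19.2%). Of the 1667 genes higher in KO GMP library 1, 1146 (68.7%) were higher in WT CMP and 76 (4.6%) in WT GMP. Of the 1366 genes lower, 847 (62%) were higher in WT GMP and 73 (5.3%) in WT CMP. As shares of the WT lists, the 1146 genes are 39.1% of the 2934 and the 847 genes are 29% of the 2917. The part of the gate genes' levels and of Xist in these calls was not tested.

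Targets of p53, the transcription factor of the DNA damage response, rose in library 1 in 14 of 27 genes, with 0 that fell (median 0.57). In WT CMP 3 and 4 against WT GMP 3 and 4, 9 of the 27 were higher and 5 lower (median 0.01), where 19.3% and 19.2% of all genes were. The part of this cell type difference in the rise of library 1 was not tested. Cdkn1a, an inhibitor of cyclin-dependent kinases, held 20.7, 21.9, 35.1 and 33.5 CPM in WT GMP, 85.7 CPM in KO library 1, and 38.6 and 43.4 CPM in KO libraries 3 and 4. All KO libraries were above all WT GMP libraries, and library 1 was also above the WT CMP libraries, at 35.4 to 60.0 CPM. The log2 change of Cdkn1a was 2.01 ± 0.13 in library 1, and 0.25 ± 0.11 in libraries 3 and 4 (adjusted p = 0.914). The p53 targets Zmat3 (2.97 ± 0.20) and Phlda3 (4.58 ± 0.35) rose in library 1 and gave 0.29 ± 0.17 and 0.76 ± 0.27 in libraries 3 and 4. Of the 27 targets, 10 were higher in all KO than in all WT GMP libraries and 0 lower, where 3.64% and 3.7% of all tested genes were. WT libraries 1 and 2 were lower than WT libraries 3 and 4 in 12 of the 27 and higher in 1. The list median of 0.25 without library 1 rests on all 4 of these WT libraries. In libraries 3 and 4, in the fit of all libraries, 0 of 27 passed in edgeR (median 0.11). There 4 were higher and 0 lower at an unadjusted p under 0.05, where 2.07% and 3.12% of all genes were.

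Collagen and other genes of stromal cells, at or near 0 in the other GMP libraries, were measured in library 1. Col1a2 held 9.62 CPM there and at most 0.277 CPM in the other GMP libraries, Sparc 5.84 CPM and at most 0.123 CPM, and Cxcl12, a chemokine of marrow stroma, 48.7 CPM and at most 2.35 CPM. Bgn, Gas6 and Tgm2, matrix and secreted proteins, held 19.0, 7.31 and 9.14 CPM, against at most 0.842 CPM elsewhere in the GMP. Clca1, a secreted protease linked to chloride channels, held 12.2 CPM, and 12.6 to 17.9 CPM in WT CMP. In the stromal and endothelial list 10 of 18 rose and 2 fell. Its summed level was 324 CPM in KO library 1 and 287 to 302 CPM in WT GMP, with 0 of 18 members at 0 in library 1 and 3 to 10 at 0 in WT GMP. For the same list KO CMP libraries 1 and 2 held 380.5 and 440.4 CPM, and KO CMP libraries 3 and 4 held 218.3 and 214.3 CPM. WT CMP held 221.5 to 274.8 CPM. The summed levels in library 1 and in WT GMP were 961 and 554 to 610 CPM for megakaryocyte genes, 526 and 449 to 479 CPM for erythroid genes, 325 and 383 to 457 CPM for T and NK cell genes, and 144 and 117 to 227 CPM for B cell genes. Of 22 erythroid genes 8 rose and 2 fell in library 1 (median 0.20). Of 17 T and NK cell genes 5 rose, among them Thy1 (2.77 ± 0.23), and 1 fell, Nkg7 (-0.56 ± 0.11), while their median was 1.45 with a lower summed level. The part of these cell types in the calls of library 1 was not tested.

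In libraries 3 and 4 no gene of the TRAPP complexes or of ER to Golgi transport passed, while in library 1 all 14 TRAPP genes were negative. Over all 7 libraries 13 of the 14 were negative (median -0.07). Of 14 TRAPP genes, Trappc1 and Trappc2l (-0.61 ± 0.14) fell in library 1 (median -0.19), and 0 of 14 passed in libraries 3 and 4 in the fit of all libraries (median -0.02; 0 at an unadjusted p under 0.05). Trappc2l held 31.4, 26.6, 33.1 and 32.2 CPM in WT and 19.0, 28.7 and 30.9 CPM in KO libraries 1, 3 and 4. Of 43 genes of ER to Golgi transport 7 fell and 1 rose in library 1 (median -0.13), and 0 passed in libraries 3 and 4 in edgeR (median 0.01; 0 at an unadjusted p under 0.05). The share called in library 1 was 14.3% of the TRAPP list and 18.6% of the transport list, against 20% of all tested genes. Transport genes that fell included the Golgi stacking protein Gorasp1 (-0.62 ± 0.09), the SNAREs Bet1 (-0.81 ± 0.17) and Sec22b (-0.54 ± 0.11) and the cargo receptor Tmed2 (-0.45 ± 0.08). Sec23a, a COPII coat subunit, rose (0.40 ± 0.12). In WT CMP 3 and 4 against WT GMP 3 and 4, 7 of the 14 TRAPP genes were lower and 0 higher (median -0.33). Of the 43 transport genes, 39 were lower and 1 higher there (median -0.51), where 19.2% of all genes were lower and 19.3% higher. The part of this cell type difference in the falls of library 1 was not tested.

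ER chaperones and other genes of the unfolded protein response fell in library 1, in 15 of 28 with 0 that rose (median -0.35). Hspa5, the main ER chaperone, held 1890, 1848, 1602 and 1737 CPM in WT and 1223, 1823 and 1821 CPM in KO libraries 1, 3 and 4. Only KO library 1 was outside the WT range. Hspa5 fell there by 0.61 ± 0.10, the co-chaperone Dnajc3 by 0.66 ± 0.09, the oxidase Ero1l by 0.71 ± 0.11 and the transcription factor Xbp1 by 0.36 ± 0.10. In libraries 3 and 4, 0 of 28 passed in edgeR (median 0.01), with 1 higher and 0 lower at an unadjusted p under 0.05. The median of this list was lower in WT CMP than in WT GMP (log2 difference -0.75, with 23 of 28 lower).

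Interferon-response genes differed most between the WT libraries themselves. Rsad2, an antiviral enzyme, held 1.64 and 1.84 CPM in WT libraries 1 and 2, 8.68 and 8.02 CPM in WT libraries 3 and 4, 8.53 CPM in KO library 1, and 12.4 and 11.2 CPM in KO libraries 3 and 4. Each KO library was above the WT libraries of its own numbers. Of 28 genes of the list, 22 were lower in WT libraries 1 and 2 than in 3 and 4 and 0 higher. In library 1, 13 rose and 3 fell (median 0.49). In libraries 3 and 4, 26 of 28 were positive (median 0.17), where 47.9% of all genes were, with 0 passing in edgeR. At an unadjusted p under 0.05, 7 were higher and 0 lower there, where 2.07% and 3.12% of all genes were. A median of 0.74 without library 1 rests on all 4 WT libraries, which differ in this list. The summed level of the list was 592.5 CPM in KO library 1, and 592.3 and 585.6 CPM in WT libraries 1 and 2. In WT CMP 3 and 4 against WT GMP 3 and 4, 20 of the 28 were higher and 1 lower (median 0.78), where 19.3% and 19.2% of all genes were. The part of this cell type difference in library 1 was not tested.

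**Figure D3:**
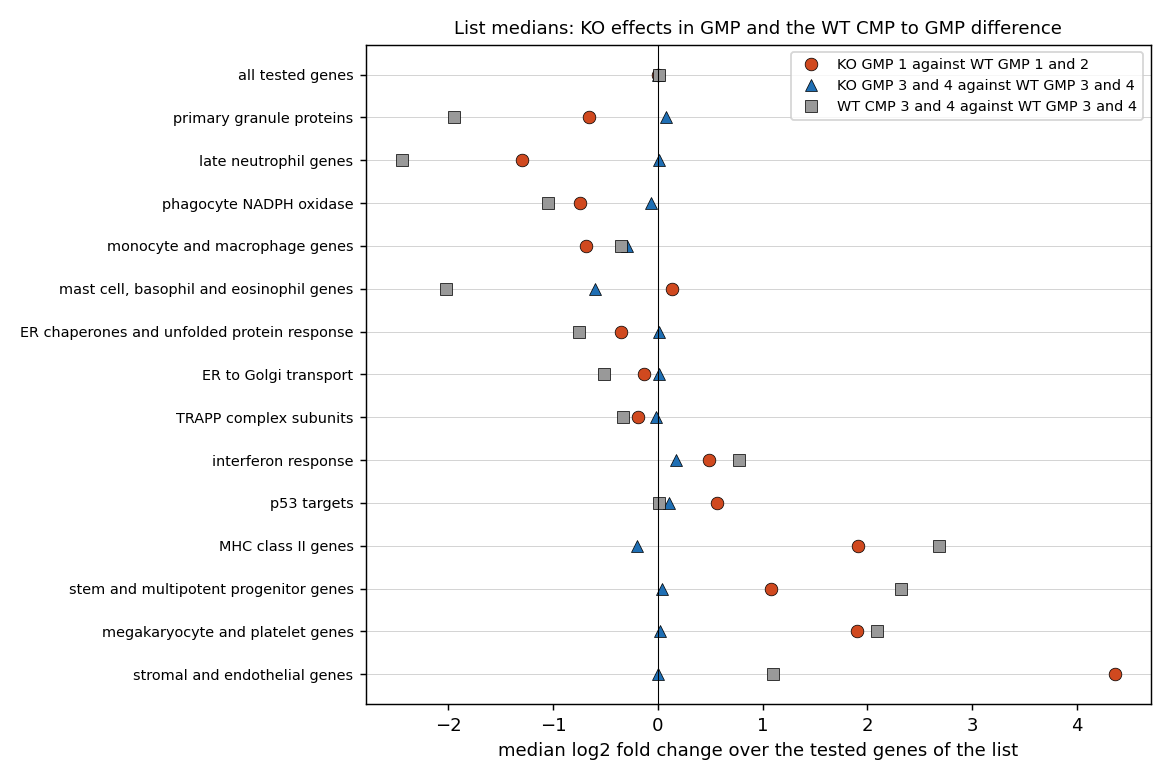
Median log2 fold change (x axis) over the tested genes of 14 lists and of all genes (y axis): KO GMP library 1 against WT GMP 1 and 2 (circles), KO GMP 3 and 4 against WT GMP 3 and 4 (triangles), and WT CMP 3 and 4 against WT GMP 3 and 4 (squares). Circles and squares are on the same side of 0 for lists such as primary granule proteins (-0.66 and -1.94). They are on opposite sides for the mast cell, basophil and eosinophil list (0.14 and -2.02), and p53 targets are at 0.57 and 0.01. The triangles lie between -0.20 and 0.17 except for the mast cell, basophil and eosinophil list (-0.60) and the monocyte list (-0.29).

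Library 1 and libraries 3 and 4 share no control, so their effects can be set against each other. Of the 1667 genes higher in library 1, 885 (53.1%) were positive in libraries 3 and 4 against 47.9% of all genes, and 102 (6.12%) were higher at an unadjusted p under 0.05, where 2.07% of all genes were. Of the same genes, 117 were lower at that threshold, more than the 102 that were higher, where 3.12% of all genes were lower. Of the 1366 genes lower in library 1, 818 (59.9%) were negative against 50.2% of all genes, 86 (6.3%, against 3.12%) were lower at an unadjusted p under 0.05, and 11 were higher. The median size of the change for the genes higher in library 1 was 1.23 there and 0.15 in libraries 3 and 4, and for the genes lower 0.61 and 0.07. Of the 26 genes lower in libraries 3 and 4 with the GMP libraries alone, 13 (50%, and 0.952% of the 1366) were called lower in library 1. They were Abca9, Ctsh, Cyp4f18, Ear1, Ear3, Fn1, Ifi30, Irf8, Lyz2, P2rx7, Pld4, Psap and Tpm4. Fcer1a and Padi2 were called lower in libraries 3 and 4 and higher in library 1. Of the 8 genes higher in libraries 3 and 4, 2 (25%), Odc1 and Trib1, were called higher in library 1 and 1 (12.5%), Cxcl2, lower. Among all genes 11% were called higher and 9% lower in library 1. The difference between the effects, numbers 1 and 2 minus 3 and 4, passed in 1614 genes (10.6%), 952 higher (6.27%) and 662 lower (4.36%). With the GMP libraries alone 1370 were lower.

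**Figure D4:**
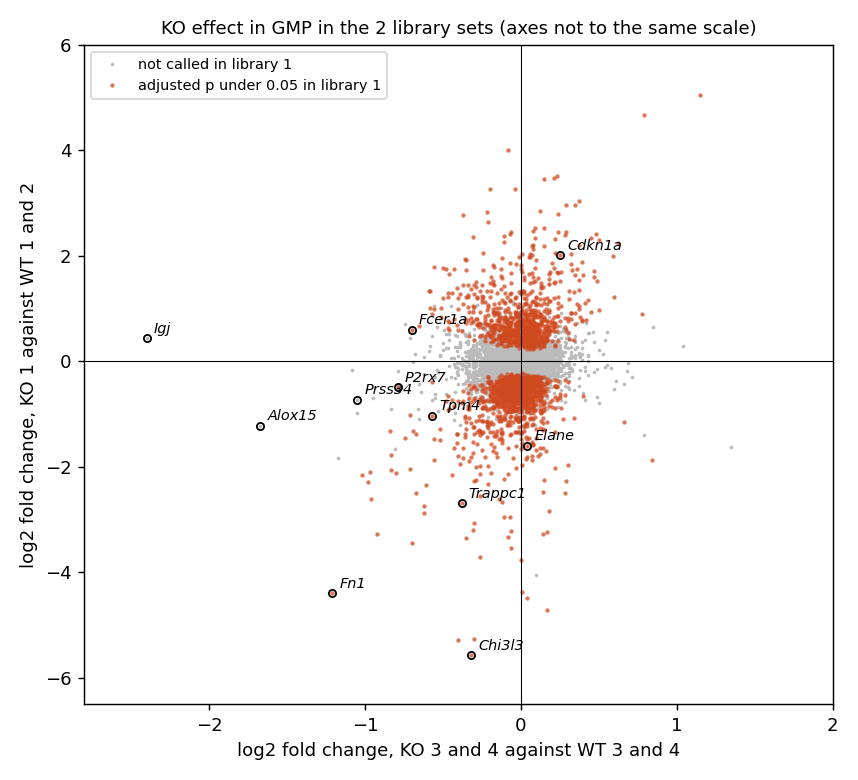
Log2 fold change of KO libraries 3 and 4 against WT libraries 3 and 4 (x axis) and of KO library 1 against WT libraries 1 and 2 (y axis, longer scale) for genes with a mean of at least 5 CPM over the GMP libraries. Orange points passed in library 1, and most lie along the y axis, while Fn1 and Tpm4 are below 0 on both axes; Xist lies beyond the upper end.

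The knockout effect in GMP was also set against that in CMP. The difference of the effects, CMP minus GMP, passed for 0 of 15181 genes (0%) in edgeR, with 129 higher (0.85%) and 322 lower (2.12%) at an unadjusted p under 0.05 and a smallest adjusted p of 0.291. DESeq2 and limma-voom were not run on this difference. KO GMP library 1 is 1 of the 3 KO GMP libraries in it.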

How the data were processed

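The members and the gene lists were chosen with earlier results of these data known. The deposited values are expected counts (1 estimated count per gene symbol and library) that the authors made from reads aligned with HISAT to mm10, per the submitters' processing notes. The sources used here do not give the aligner's version, the counter or the annotation. Of values from 1 to 40, 38.0% were multiples of 4 (25% if spread evenly), so about 4 units were taken as 1 fragment (15319603 to 28108381 fragments per GMP library), an inference from the values. There were 25 symbols turned into dates.

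Counts were rounded, filtered with filterByExpr, scaled by TMM and tested with edgeR 4.0.16 (R 4.3.3) by quasi-likelihood with Benjamini-Hochberg adjustment at 0.05, on 15181 genes, with all 15 libraries sharing 1 spread unless stated. DESeq2 1.42.0, limma 3.58.1 (voom), DESeq2 size factors, no low-count filter, values divided by 4, the GMP libraries alone, the replicate block, the number set as a covariate and leaving out each library were alternatives. The procedure was tested on simulated data. Same-numbered KO and WT libraries deviated together (correlations 0.13, 0.13 and 0.18), so the numbers were taken to pair libraries, although KO 1 with WT 2 (0.19) and KO 3 with WT 4 (0.16) correlated as highly; KO 4 with WT 3 gave 0.06 and the rest -0.23 to -0.09.

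Genes named are Trappc1, genes past the threshold with the largest changes and no overlap at 5 CPM (up to 10 a direction, or the 5 of smallest p where fewer than 5 passed), the 5 of smallest p a direction of the difference between number sets, up to 4 members per list, and the sort gate genes and Xist. Other genes, including those called with the GMP libraries alone, were chosen after their values were seen. Of the symbols in 38 lists, 743 were matched and 6 were not. Positions are from GENCODE on GRCm38.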

Additional observations from a re-analysis of the deposited data

Results flagged for a closer look

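The difference from WT was not the same in KO library 1, a single library with no replicate in its set, as in KO libraries 3 and 4: an interaction test passed for 952 genes higher and 662 lower in numbers 1 and 2. The 5 of smallest p among those higher were Col4a1 (log2 difference 4.64 ± 0.21), F2r (4.08), Slc22a3 (2.50 ± 0.14), Mdga1 (2.12 ± 0.12) and Clca1 (7.56 ± 0.47). Col4a1, a basement membrane collagen, held 15.2 CPM in KO library 1 and 0.640 to 1.52 CPM in the other GMP libraries. Slc22a3, an organic cation transporter, held 84.9 CPM there and 14.5 to 16.9 CPM elsewhere in the GMP. The 5 lower were Chi3l3 (-5.25), Mgl2 (-3.25 ± 0.23), Mreg (-3.41 ± 0.24), S100a9 (-4.39) and Smpdl3a (-1.72 ± 0.12). Mgl2, a lectin of macrophages and dendritic cells, held 6.78 CPM in KO library 1 and 59.0 to 72.8 CPM in the other 6. It cannot be told apart whether these differences belong to the numbers 1 and 2 or to that 1 library.

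Among the 4 WT GMP libraries, 1 value stood apart for Wfs1 (gap to range ratio 0.839, library 2 at 8.86 CPM) and for Mgl2 (0.855, library 1 at 72.8 CPM). Chance gives this in about 1 in 20 groups. The check was run on a set of named genes and only those past the limit are given, so chance is not excluded.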

How the results depend on the processing

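Counts over all 7 libraries were 0 higher and 0 lower, 48 and 12 with DESeq2, 4 and 1 when the number set was a covariate, and 0 when any 1 library was left out. Without KO library 1, against 4 WT libraries, they were 0 and 0, 1 and 10 with DESeq2, 1 lower with limma-voom, 2 lower with the GMP libraries alone, and 0 to 1 lower on leaving out 1 more library (1 without KO library 3). For libraries 3 and 4 alone the counts were 1 and 1, then 3 and 9 with no low-count filter, 13 and 29 with DESeq2, 2 and 13 with limma-voom, 8 and 26 with the GMP libraries alone, and 2 and 7 with values divided by 4. Leaving out 1 library gave 1 to 13 higher and 0 to 28 lower: 5 lower without KO library 3, and, from the GMP libraries alone (leave-outs chosen after seeing the data), 28 without KO library 1 (not in that contrast), 15 without KO library 3, 6 without KO library 4, 23 without WT library 1 or 2, 27 without WT library 3 and 26 without WT library 4. For library 1 the GMP libraries alone gave 2181 lower, and leaving out 1 WT library 1211 to 1275 higher and 757 to 1037 lower. The difference between number sets gave 1370 lower with the GMP libraries alone. The cause of these moves was not tested.

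The pairing by replicate block changed no call over all 7 libraries or without KO library 1 (0 and 0), and gave Trappc1 -1.20 (adjusted p = 0.603); its log2 change over all 7 was -0.95 ± 0.45, and -1.23 to -0.53 on leaving out 1 library. Padi2 over all 7 ranged from -0.75 to 0.21, positive without KO library 3 or 4. S100a8 in libraries 3 and 4 ranged from -0.02 to 0.40 (0.39 in the fit of all libraries without WT library 4), and was -0.02 without WT library 3 in either fit. These comparisons rest on 3 KO libraries, 1 of them in numbers 1 and 2. For genes under 1 CPM, such as Gm8801, depth limits the values too.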

Other observations

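Other gene groups moved in KO library 1 against WT libraries 1 and 2. Among all tested genes 11% were called higher and 9% lower in that comparison, the shares to set beside the counts below. In the list of autophagy and lysosome genes, 10 of 30 fell and 4 rose (median log2 change -0.21). Those that fell included the membrane protein Lamp1 (-0.84 ± 0.08), the cholesterol carrier Npc2 (-0.86 ± 0.12) and the hexosaminidase subunit Hexa (-0.77 ± 0.11). In libraries 3 and 4, 0 of 30 passed in edgeR in the fit of all libraries (median -0.06). At an unadjusted p under 0.05, 0 were higher and 4 lower, where 2.07% and 3.12% of all genes were. With the GMP libraries alone 1, Psap, fell (edgeR adjusted p = 0.0146). Of 24 cholesterol synthesis genes 7 fell and 2 rose in library 1, with Fdps, which makes farnesyl diphosphate, at -0.73 ± 0.13.

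Of 30 DNA replication genes 7 fell and 0 rose in library 1 (median -0.10), among them the cyclin Ccne2 (-0.76 ± 0.12) and the sliding clamp Pcna (-0.48 ± 0.10). Of 13 dendritic cell genes 6 rose and 0 fell (median 1.19), with the growth factor receptor Flt3 at 1.09 ± 0.11 and the integrin Itgax at 2.36 ± 0.33. In libraries 3 and 4, in the fit of all libraries, 0 of 30 and 0 of 13 passed in edgeR, with 0 higher in each list and 0 and 2 lower at an unadjusted p under 0.05. Of 23 ribosome biogenesis genes, 22 were positive in libraries 3 and 4 (median 0.13), where 47.9% of all genes were, with 0 passing in edgeR. At an unadjusted p under 0.05, 4 were higher and 0 lower, where 2.07% and 3.12% of all genes were. In library 1, 13 of the 23 were positive (median 0.02), where 50.5% of all genes were.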
